A study of Gallus gallus with 3 samples.

Results

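Pleiotrophin (PTN) and midkine (MDK) are small secreted growth factors that bind heparin and form a family of their own. Both attach to the sulfated sugar chains of proteoglycans. Their best-known signalling receptor in the nervous system is PTPRZ1, a receptor protein tyrosine phosphatase that carries chondroitin sulfate chains and whose activity in mammals falls when the ligand gathers it, so that its substrates keep more phosphate on tyrosine. ALK, a receptor tyrosine kinase, has also been described as a receptor of both factors, while its established ligands are the ALKAL proteins. The members were chosen by gene symbol (PTN, MDK, PTPRZ1 and ALK), and all 4 were present, each on 1 row, among the 15916 genes measured. PTN was proposed because its value differed between the stages, so the stage difference of the members is a description and carries no test.

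The values came from polyA RNA sequencing of the spinal neural tube, the epithelium that becomes the spinal cord, of wild-type White Leghorn chicken embryos. Tissue was taken at the brachial level and further back at Hamburger-Hamilton stage HH14 (2 libraries) and stage HH19 (1 library), with about 25 embryos pooled in each library. Neighbouring tissues (mesoderm, aorta, endoderm, notochord, skin ectoderm) were dissected away with the help of trypsin, and the HH19 library carries the dissection text written for HH14. Expression is given as TPM, a share of all transcripts that is corrected for gene length, so levels can be compared between genes.

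The table holds 1 value for both HH14 libraries and 1 for HH19, with no replicate error. The value of each HH14 library was therefore worked out from the whole reads behind the deposited values. The HH14 libraries are called A and B, since nothing ties them to the replicate numbers, and nothing says that they came from separate egg batches, so their spread may be technical. Such values were obtained for 15589 genes, resting on 18992548 reads in library A, 23082011 in library B and 19914592 at HH19. The HH14 libraries stood apart. Of 10771 genes with library values and a mean of at least 1 TPM, 697 (6.47%) differed at least 2-fold between A and B, and the log2 difference between them had an SD of 0.54 across genes, against 0.41 between library B and HH19 and 0.68 between library A and HH19. Neural tube progenitor genes were high in every library. SOX2, a transcription factor of neural progenitors, had 178 TPM in library A, 177 TPM in library B and 185 TPM at HH19. For each result the value against each HH14 library is given beside the deposited one.

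The ligand PTN was lower at HH19, and in its most probable library values the size of that difference rested on 1 HH14 library. The deposited value was 194 TPM at HH14 against 47.6 TPM at HH19. This is a 4.09-fold lower level, or a log2(TPM + 1) difference of -2.01, and PTN moved from rank 720 to rank 3216 of the 15916 genes, rank 1 being the highest. Among the 11097 tested genes, those with a mean of at least 1 TPM, the PTN difference was number 18 from the lowest. PTN was proposed for this difference, so nothing is read from that rank. In bulk tissue, fewer cells of a type and less RNA per cell cannot be told apart.

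The most probable library values of PTN were 325 TPM in library A beside 63.9 TPM in library B, from 9820 and 2471 reads, beside 1513 reads at HH19. Library A alone was high, and library B lay close to HH19. The 2 HH14 libraries differed 5.09-fold, whereas library B was 1.34-fold above HH19 and library A 6.84-fold above it. On the log2(TPM + 1) scale the difference was -2.75 from library A and -0.42 from library B, so the 2-fold difference between the stages did not hold without library A. A ratio of A to B at least that of PTN was found in 56 of 10771 tested genes with library values, PTN included. Among the 1211 genes with library values and a mean of at least 100 TPM it was found in 2, PTN included. The step that gave the library values disfavours large ratios and leaves out genes without a clear solution. These counts therefore cannot show how rare so large a ratio is.

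The library values of PTN have a weight of 95.9% among all whole-read solutions of its deposited values. The weight fell to 86.7% and 78.4% when narrower distributions of the ratio between the libraries were assumed, and was 97.6% under another length distribution. The best solution has a gene length of 1623 bases, no shorter solution was found, and the next set of values gave 148 TPM in library A beside 241 TPM in library B with a weight of 1.37%. Under the narrower distributions the next set was 183 TPM and 206 TPM, with weights of 5.43% and 9.27%. In either set both HH14 libraries would lie more than 2-fold above HH19. The deposited stage values do not depend on this step.

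**Figure D1:**
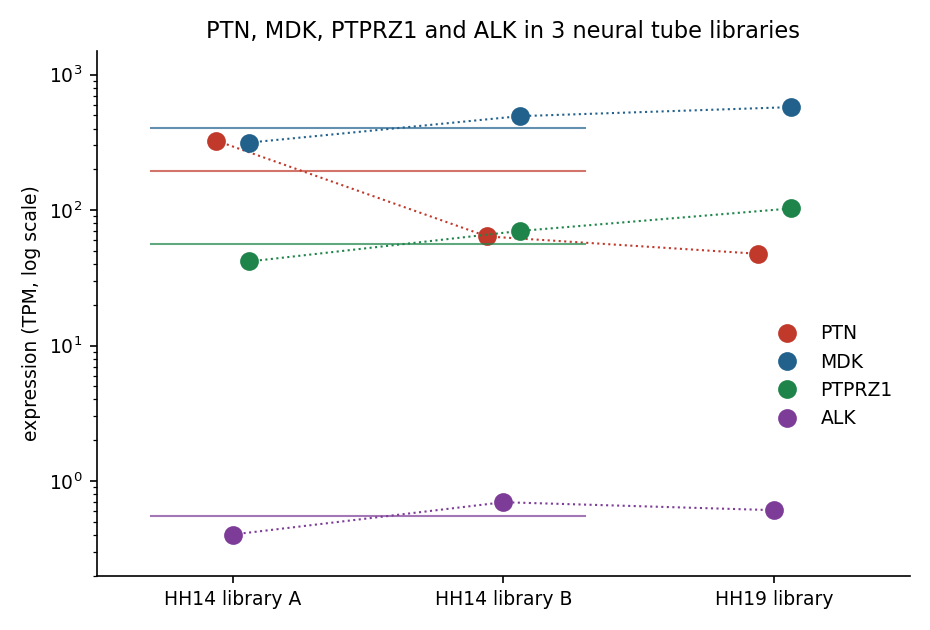
Expression of PTN, MDK, PTPRZ1 and ALK (TPM, log axis) in HH14 libraries A and B and in the HH19 library; points are single libraries joined by dotted lines for the eye, and horizontal lines are the authors' HH14 value for both libraries. In the most probable library values PTN and MDK meet at 325 and 315 TPM in library A, and PTN lies at 63.9 TPM in library B. PTN lies at 47.6 TPM at HH19.

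MDK, the second ligand, was the more abundant factor in the deposited columns and lay within 2-fold between the stages. It had 404 TPM at HH14 against 575 TPM at HH19, a log2 difference of 0.51, and moved from rank 309 to rank 218. Its library values, with a weight of 98.3%, were 315 TPM in library A, 493 TPM in library B and 575 TPM at HH19. Library B lay between library A and HH19, as for PTN but in the opposite order. HH19 was 1.83-fold above library A and 1.17-fold above library B, while the HH14 libraries differed 1.57-fold, so the distance from HH19 to library B was smaller than the spread at HH14.

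The ratio of the ligands differed more than their sum. PTN was proposed for its stage difference, and MDK was the larger part of the sum in both deposited columns. Nothing is therefore read from this comparison. The ratio of MDK to PTN was 2.08 in the HH14 column and 12.1 at HH19. By library it was 0.968 in A, 7.73 in B and 12.1 at HH19. The summed level of both ligands was 640 TPM in library A, 557 TPM in library B and 623 TPM at HH19, so the sum at HH19 lay between those of the HH14 libraries. PTN made up 50.8% of that sum in library A, 11.5% in library B and 7.64% at HH19. These values per library take the most probable set for PTN.

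PTPRZ1, the phosphatase receptor, was higher at HH19 than in either HH14 library, at under 2-fold in the deposited columns. Its values were 55.9 TPM at HH14 against 103 TPM at HH19, a 1.84-fold difference (log2 difference 0.87), with a move from rank 2665 to rank 1477. The libraries had 41.7 TPM in A, 70.1 TPM in B and 103 TPM at HH19, from 8940, 19243 and 23201 reads. The HH14 values did not reach the HH19 value. HH19 lay 2.46-fold above library A and 1.47-fold above library B, beside a 1.68-fold difference between the HH14 libraries. Summed ligand level per unit of PTPRZ1 level was 15.3 in library A, 7.95 in library B and 6.06 at HH19.

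ALK, the kinase receptor, was low in all 3 libraries. It had 0.550 TPM at HH14 against 0.609 TPM at HH19, below the mean of 1 TPM needed for the size comparison, and ranks of 11982 and 11910. Library A gave 31 reads, library B 70 reads and HH19 50 reads. With exact 95% Poisson intervals, which cover counting error only, the levels were 0.265 to 0.553 TPM in library A, 0.536 to 0.868 TPM in library B and 0.443 to 0.787 TPM at HH19. The interval of HH19 overlapped those of both HH14 libraries, so a difference between the stages was not detectable at this depth. PTPRZ1 stood 104-fold above ALK in library A, 101-fold in library B and 169-fold at HH19.

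**Figure D2:**
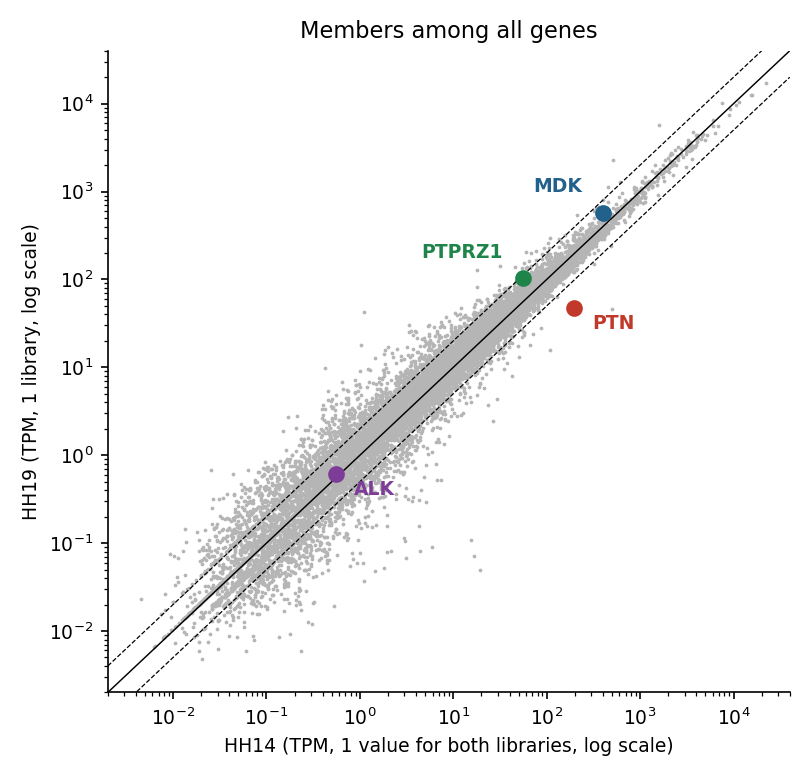
HH14 against HH19 expression of all 15916 genes (TPM, log axes). Each grey point is a gene, and coloured points are the members. The solid line marks equal values, and the dashed lines mark a 2-fold difference in plain TPM. PTN lies below the lower dashed line at 194 and 47.6 TPM, MDK and PTPRZ1 lie between the equal line and the upper dashed line, and ALK lies close to the equal line at 0.550 and 0.609 TPM.

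A gene was counted as higher or lower at HH19 where log2(TPM + 1) differed by at least 1 and the mean over the libraries, with the HH14 value counted for both, was at least 1 TPM. Of the 3 members that passed this filter, 1 (PTN) was lower and none higher. Among all 11097 genes that passed, 436 (3.93%) were higher and 153 (1.38%) lower, and the median log2 difference was 0.05. Nothing is read from the members' count, since PTN was proposed from this contrast. On the most probable library values no member was at least 2-fold from each HH14 library. This criterion was met upward by 229 (2.13%) of 10771 genes and downward by 41 (0.381%). Of the 151 lower genes with library values, 136 were higher in library A than in library B, 79 of them at least 2-fold, and 50 were still at least 2-fold below library B. On its most probable library values PTN was among the 79 and not among the 50. Over all 10771 genes, 440 (4.09%) were at least 2-fold higher in A than in B. The share over all genes is not given for the 136 or the 50, so nothing is read from those counts. The falling order from A through B to HH19, shown by PTN, was that of 1885 genes (17.5%), and the rising order shown by MDK and PTPRZ1 that of 3052 genes (28.3%).

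**Figure D3:**
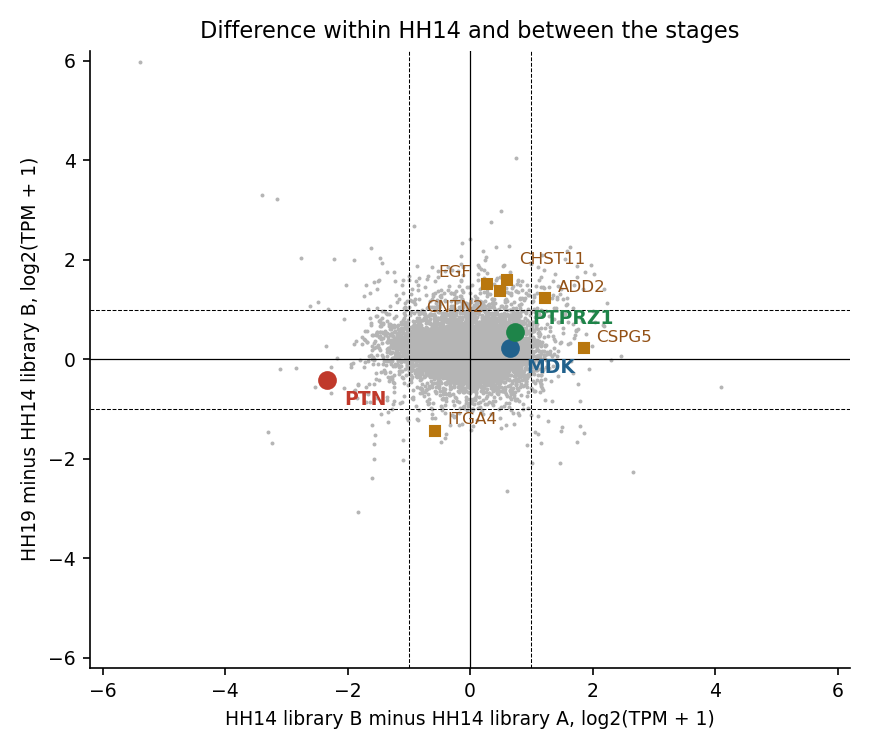
Difference of HH14 library B from library A (horizontal) against the difference of HH19 from library B (vertical), both as log2(TPM + 1), for 10771 genes with library values and a mean of at least 1 TPM (grey), with PTN, MDK and PTPRZ1 (circles) and genes of the pathway (squares); dashed lines mark 2-fold. PTN lies at -2.33 within HH14 and -0.42 between library B and HH19, while ITGA4 lies at -0.57 and -1.43.

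Around the members, 9 lists of pathway genes were described: other receptors, ALK ligands, PTPRZ1 partners, PTPRZ1 substrates, ALK adaptors, chondroitin sulfate core proteins, the enzymes of chondroitin sulfate and of heparan sulfate, and other growth factors. Together they hold 101 measured genes, of which 91 passed the filter. Of these, 6 were higher and 1 was lower, beside 3.93% and 1.38% of all genes. The other 84 lay within 2-fold on the log2(TPM + 1) scale. In plain TPM some low genes among the 84 passed 2-fold, such as LTK (2.69-fold lower), PDGFB (2.61-fold lower) and CNTN1 (2.62-fold higher). The median log2 difference was 0.10 against 0.05 for all genes. Against each HH14 library separately, 4 of 87 genes with library values were at least 2-fold above and 1 was at least 2-fold below.

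Among other receptors and co-receptors, 1 of 18 tested genes was lower and none higher, with a median log2 difference of 0.03. The lower gene was ITGA4, the alpha 4 integrin subunit, part of an integrin described as a midkine receptor and also a gene of migrating neural crest. It had 41.5 TPM in library A, 27.5 TPM in library B and 9.59 TPM at HH19. Both HH14 libraries were above HH19, and the log2 difference was -2.01 from library A and -1.43 from library B. ITGA4 is also on the neural crest marker list, of which 5 of 10 tested genes were lower and 2 higher. Besides ITGA4 the lower ones were SNAI2, SOX10, TFAP2A and EDNRB, each more than 2-fold below both HH14 libraries. The higher ones were ETS1 and SOX8. The part of crest cells in the ITGA4 value was not tested. The most abundant receptors within 2-fold were NCL, nucleolin, a nucleolar protein also found at the cell surface where it binds both ligands, with 1351 TPM at HH14 against 1327 TPM at HH19, and ITGB1, the common integrin beta chain, with 162 TPM and 130 TPM.

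Other receptors were named for their roles after their values had been seen. SDC3, or N-syndecan, a heparan sulfate proteoglycan that binds pleiotrophin on neurites, had 19.3 TPM in library A, 24.4 TPM in library B and 41.3 TPM at HH19, a log2 difference of 0.89 in the deposited columns. PTPRS, a receptor phosphatase that binds chondroitin sulfate, had 87.4, 88.8 and 111 TPM in the same order. LTK, the kinase most closely related to ALK, had 3.62 TPM in library A, 1.995 TPM in library B and 1.04 TPM at HH19, from 315, 222 and 95 reads. The Poisson intervals of LTK did not overlap between any of the libraries, and its level was above that of ALK in each. FAM150B, which encodes the ALK ligand also named ALKAL2 and was the only 1 of 4 ligand symbols measured, had 21, 14 and 34 reads. Its intervals of 1.35 to 3.32 TPM in library A and 2.31 to 4.66 TPM at HH19 overlapped, while that of library B, 0.618 to 1.90 TPM, lay below HH19.

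The partners of PTPRZ1 on neural cells and in matrix held 2 higher genes among 6 tested and no lower one, with a median log2 difference of 0.68. CNTN2, an axonal contactin of early spinal neurons, had 5.64 TPM in library A, 8.33 TPM in library B and 23.2 TPM at HH19. NFASC, the adhesion protein neurofascin, had 15.4, 23.9 and 45.3 TPM in that order. Both HH14 libraries lay below HH19 for each gene, and HH19 was at least 2-fold above both for CNTN2 (log2 1.87 and 1.38) but not for NFASC (1.50 and 0.89). The abundant partners within 2-fold were NCAM1, the neural cell adhesion molecule, with 132 TPM at HH14 against 193 TPM at HH19, and NRCAM, a cell adhesion molecule that binds contactins, with 27.1 and 27.4 TPM. These partner genes are ones that neurons express. The neuron marker genes with library values summed to 283 TPM in library A, 576 TPM in library B and 1173 TPM at HH19. Of these 6 markers, 4 had the rising order from A through B to HH19. The others were higher in A than in B, DCX with 37.6, 11.4 and 21.0 TPM and ELAVL4 with 73.5, 63.6 and 144 TPM. The part of neurons in the partner values was not tested.

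Among the PTPRZ1 substrates, 1 of 7 tested genes was higher, with a median log2 difference of 0.15. ADD2, beta-adducin, a cytoskeletal protein, had 0.566 TPM in library A, 2.68 TPM in library B and 7.58 TPM at HH19, from 16, 102 and 239 reads. The HH14 libraries differed at least 2-fold for ADD2, and HH19 was above both. The most abundant substrates within 2-fold were CTNNB1, beta-catenin, with 653 TPM at HH14 against 603 TPM at HH19, and GIT1, an adaptor of focal adhesions, with 37.8 and 62.5 TPM.

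All 14 ALK adaptors and signal transducers were tested, and none was higher or lower, with a median log2 difference of -0.10. GRB2, the adaptor that links receptors to RAS, had 209 TPM at HH14 against 189 TPM at HH19, and MAP2K1, the kinase that activates ERK, had 96.8 and 89.5 TPM. These genes serve many receptors. The ALK message was below 1 TPM in the same libraries.

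Of 4 tested chondroitin sulfate core proteins none was higher or lower, with a median log2 difference of 0.28. CSPG5, or neuroglycan C, a proteoglycan that also binds midkine, had 45.4 TPM in library A, 168 TPM in library B and 196 TPM at HH19. Library A alone was low, so that CSPG5 has the opposite order to PTN. VCAN, versican, a large matrix proteoglycan, had 37.3, 18.2 and 25.0 TPM, with HH19 between the HH14 libraries.

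**Figure D4:**
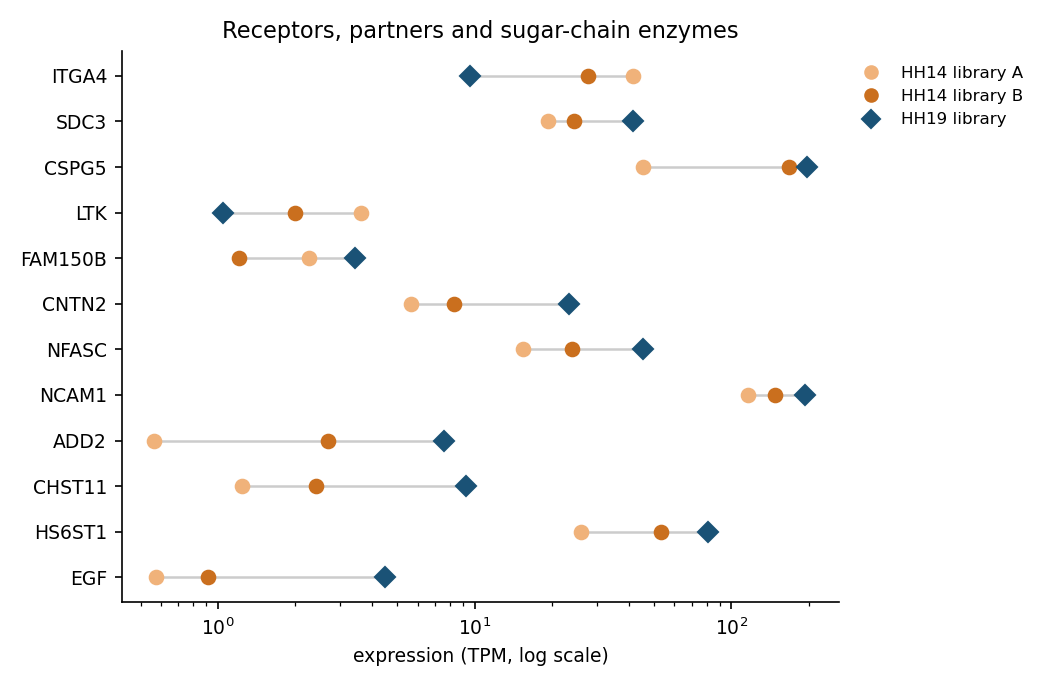
Expression (TPM, log axis) of selected receptors, partners, sugar-chain enzymes, the ALK ligand FAM150B, the substrate ADD2 and EGF. Values are from HH14 library A (light circles), HH14 library B (dark circles) and the HH19 library (diamonds), with a grey line from the lowest to the highest. HH19 lies outside the HH14 pair in the genes drawn, below it for ITGA4 (9.59 TPM) and LTK (1.04 TPM) and above it for the others. This follows from the selection, since list genes with HH19 between the HH14 libraries, such as VCAN and GPC2, are not drawn.

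Ligand binding depends on how the sugar chains are sulfated, and 1 sulfotransferase in each enzyme list was higher at HH19. Among 15 tested chondroitin sulfate enzymes this was CHST11, which adds sulfate at carbon C4 of the chondroitin sugar. CHST11 had 1.25 TPM in library A, 2.41 TPM in library B and 9.22 TPM at HH19. Both HH14 libraries were well below HH19, by log2 differences of 2.19 and 1.58. No enzyme of the list was lower by the size rule, and the median log2 difference was 0.41. CHST15, a sulfotransferase named here after its values had been seen, had 26.5 TPM in library A, 14.9 TPM in library B and 10.3 TPM at HH19. In plain TPM it was 2.01-fold lower at HH19, and on the log2(TPM + 1) scale the difference was -0.94. CHST3, on the same list, went the other way, with 9.67 TPM in library A, 12.3 TPM in library B and 22.4 TPM at HH19. In plain TPM CHST3 was 2.04-fold higher at HH19, with a log2(TPM + 1) difference of 0.965. The most abundant enzymes within 2-fold were B4GALT7, which builds the linker that joins the chain to the protein, with 92.1 TPM at HH14 against 104 TPM at HH19, and CHSY1, which extends the chain, with 45.0 and 36.2 TPM.

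Among 11 tested heparan sulfate enzymes HS6ST1, a 6-O-sulfotransferase, was higher and none was lower, with a median log2 difference of 0.38. HS6ST1 had 26.1 TPM in library A, 53.1 TPM in library B and 81.1 TPM at HH19. HH19 was above both, but less than 2-fold above library B (log2 0.60), and its difference in the deposited columns was just past the limit at 1.016. SULF2, an extracellular sulfatase that removes 6-O-sulfate, had 55.4 TPM at HH14 against 72.6 TPM at HH19, and EXT1, a polymerase of the chain, had 51.1 and 55.7 TPM.

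PTN and MDK were set beside a list of other secreted growth factors, which leaves out the FGF, BMP, WNT and hedgehog families. Of 21 others measured on that list, 1 was above PTN and above MDK at HH14, 1 was above MDK at HH19 and 2 were above PTN at HH19. Outside the list, the secreted hedgehog ligand SHH had 88.3 TPM at HH14 against 117 TPM at HH19. In the deposited columns SHH was thus below PTN at HH14 and above it at HH19. On the most probable library values, the lower place of SHH at HH14 rested on library A. There PTN stood at 325 TPM beside 76.2 TPM for SHH. Library B already showed SHH above PTN, at 100 TPM beside 63.9 TPM. HDGF is another heparin-binding factor, which is also found in the nucleus. It was above PTN and MDK at both stages, with 790 TPM at HH14 against 803 TPM at HH19. CTGF, a matrix-associated factor, had 53.0 TPM at HH14 against 88.1 TPM at HH19, and so was below PTN at HH14 and above it at HH19. Against library B alone, where PTN had 63.9 TPM, CTGF at 59.8 TPM was close to PTN. Of 16 tested growth factors, 1 was higher and none lower, with a median log2 difference of 0.06. The higher gene was EGF, epidermal growth factor, with 0.573 TPM in library A, 0.916 TPM in library B and 4.49 TPM at HH19.

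The 5 genes nearest to PTN in level at both stages, among named genes with a mean of at least 10 TPM, were LIN28A, TJP1, LTBP1, ACTN1 and a gene known by a clone name only. Distance was Euclidean on log2(TPM + 1) over the 2 deposited columns. LIN28A, an RNA-binding protein of early progenitors, was at a distance of 0.72 with 129 TPM at HH14 against 63.7 TPM at HH19. By library LIN28A had 171 TPM in A, 87.6 TPM in B and 63.7 TPM at HH19, the falling order of PTN with a smaller gap within HH14. The nearest genes to MDK were MARCKSL1, ID1, PPIB, GOT2 and TSPAN3, all within 0.22. The neighbours of PTN were farther from it than those of MDK from MDK. PTN was proposed for its difference between these columns, so nothing is read from that.

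Genes of other tissues also differed between the HH14 libraries and are set beside PTN here. The 11 measured surface ectoderm markers summed to 196 TPM in library A, 120 TPM in library B and 113 TPM at HH19, and 2 of 9 tested were at least 2-fold higher in A than in B. The 9 measured endoderm and lateral plate markers summed to 53.6, 10.1 and 12.8 TPM, and 3 of 4 tested were at least 2-fold higher in A. GATA6 had no read in library B or at HH19, and GATA4 and HAND1 had none at HH19. HAND1 had 95 reads in library A, but GATA6 and GATA4 had only 3 each there. Of the 4 tested markers, 3 had the falling order of PTN, while TTR had 26.5, 3.48 and 8.38 TPM. APOA4, with 2, 7 and 5 reads, and HNF4A, with 7, 6 and 13, were not highest in library A. The 11 neural crest markers summed to 197, 179 and 147 TPM, a sum that joins genes of opposite direction. SNAI2, a transcription factor of emigrating crest, had 39.8 TPM in library A, 12.8 TPM in library B and 2.45 TPM at HH19, the falling order of PTN. SOX10, a crest transcription factor, had 18.7, 28.8 and 3.76 TPM, highest in library B. PAX3 and PAX7, which dorsal neural tube cells also express, had 61.7 and 36.2 TPM at HH19, above both HH14 libraries. ETS1 had 4.79, 7.025 and 12.9 TPM and SOX8 had 2.565, 2.83 and 7.97 TPM, both higher at HH19 by the size rule. Of the 10 tested crest markers, 4 had the falling order and 4 the rising order. For comparison, 440 of 10771 genes (4.09%) were at least 2-fold higher in A than in B and 257 (2.39%) at least 2-fold lower.

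Other lists did not share the order of PTN in their sums. The 3 progenitor markers with library values summed to 512 TPM in library A, 553 TPM in library B and 583 TPM at HH19. The 3 radial glia markers with library values summed to 134, 174 and 219 TPM. PAX6, with 109.6, 140.5 and 166 TPM, is on both lists and made up most of the radial glia sum. The more abundant radial glia markers FABP7, VIM and HES5 had no library values and are not in it. Notochord markers, 4 in number, summed to 91.0, 112 and 128 TPM, and endothelial markers (8) to 15.7, 20.4 and 20.1 TPM. Blood markers (4) summed to 15.4, 27.9 and 30.4 TPM, and paraxial mesoderm and muscle markers (11) to 9.78, 10.4 and 12.6 TPM. Single genes weighed on some of these sums. SHH, most of the notochord sum, had 76.2, 100 and 117 TPM. NOG had 7.12, 4.49 and 2.43 TPM, the falling order of PTN. T had 6.26, 5.18 and 5.70 TPM, and CHRD had 1.45, 1.70 and 2.94 TPM. Of 5 tested paraxial mesoderm and muscle markers, 1 had the falling order and 2 the rising order. MEF2C had 5.145, 2.05 and 0.305 TPM, and UNCX had 0.107, 0.889 and 4.39 TPM. MYOG had no read in any library. The part of these tissues in the PTN value of library A was not tested.

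**Figure D5:**
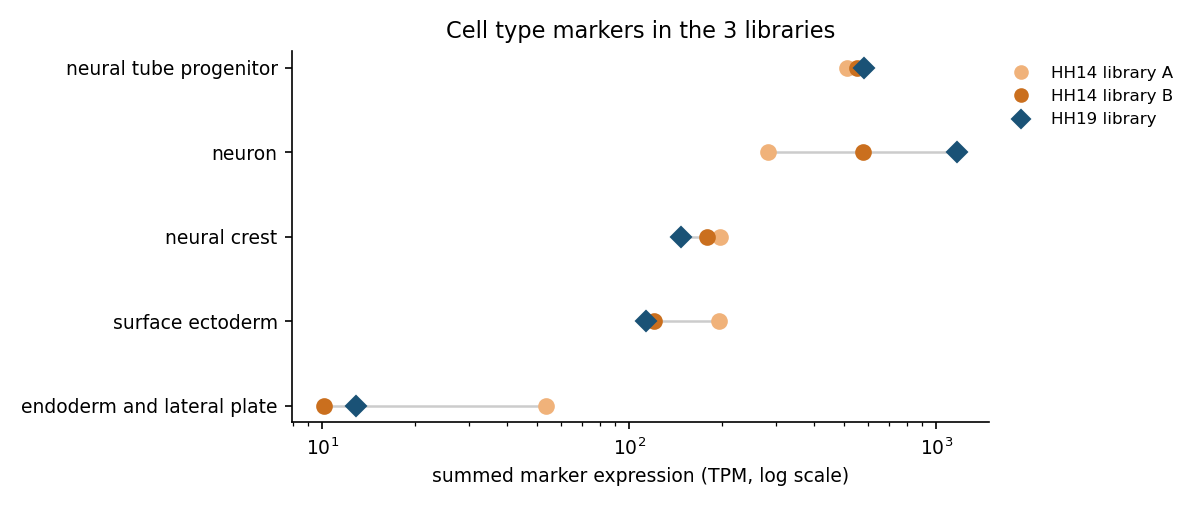
Summed expression (TPM, log axis) of 5 marker lists, over the markers with library values, in HH14 library A (light circles), HH14 library B (dark circles) and the HH19 library (diamonds). Neuron markers lie at 283, 576 and 1173 TPM, while endoderm and lateral plate markers lie at 53.6 TPM in library A against 10.1 and 12.8 TPM. The neuron sum joins markers of opposite direction between A and B, since DCX and ELAVL4 were higher in A.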

How the data were processed

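The 3 polyA RNA libraries were assigned to stages from their labels. The authors deposited TPM values for Ensembl genes, both HH14 libraries sharing a column. Tools named in the submitters' processing notes are TopHat2, SAMtools, FastQC and DESeq2, and the genome build named there is galGal4. What each tool did, and how the HH14 libraries were merged, is not stated in these sources. The deposited columns (957154 TPM at HH14, 946462 TPM at HH19) were not rescaled. No sequences were used, and gene positions only for the order of neighbours in a RefSeq table of another build. Ranks are among the 15916 genes used here.

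The members and lists were chosen with earlier results of these data known. All pathway genes at least 2-fold higher or lower and the most abundant 2 per list within 2-fold were named, with exceptions stated. Where several rows shared a symbol, the row with the highest mean was used. Differences are on log2(TPM + 1), which understates the change of low genes. With 1 library at HH19 the stages were described by size, and the limma test below is an alternative only.

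Library values came from whole reads. Each deposited HH19 value was written as 1 library's reads, and each HH14 value as the mean of 2 libraries' reads, divided by gene length, with 1 read added per library. In 1426 genes without a read 98.4% of the lengths came out whole. Candidate sets of reads (lengths up to 20000 bases, mean below 2000 TPM) were weighted by a lognormal length distribution and a Student t distribution with 3 degrees of freedom for the ratio of A to B, both fitted to these data. A gene was used where 1 set held at least 95% of the weight. This limit was first 99% and was lowered after the weights of PTN (95.9%) and MDK (98.3%) were seen. Neither is kept at 99%, which keeps 15412 of 15589 genes. The method was developed on these data and tested on simulated data, and both the method and the simulation were revised in the course of that. The simulated ratios of A to B came from a narrower distribution than the observed ones. Genes at the level of PTN with so large a ratio were therefore hardly covered, and nothing about PTN is read from the simulation.

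Alternatives tried were a pseudocount of 0.1 or 5, a mean of at least 5 TPM or no filter, median-ratio scaling, quantile normalization, leaving out each HH14 library and, added after the data were seen, 2-fold from each HH14 library, limma with an intensity trend, and other distributions in the weights. Software was limma 3.58.1 in R 4.3.3, and numba 0.67.0, numpy 2.4.6, scipy 1.17.1, pandas 2.3.3 and matplotlib 3.10.9 in Python 3.11.15.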

Additional observations from a re-analysis of the deposited data

How the results depend on the processing

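The log2 difference of PTN lay between -1.92 and -2.07 under both other pseudocounts, median-ratio scaling and quantile normalization. With 1 HH14 library left out, on the most probable library values, it ranged from -2.75 to -0.42, and it was within 2-fold without library A. MDK ranged from 0.22 to 0.87, PTPRZ1 from 0.545 to 1.28 and ALK from -0.08 to 0.20 when 1 HH14 library was left out. PTPRZ1 passed 2-fold without library B, and ALK was below library B. Of the pathway genes, 6 were higher and 1 lower. The count of higher genes was 3 at a pseudocount of 5, 3 at a mean of at least 5 TPM and 3 by limma at an adjusted p below 0.05, and from 5 to 13 with 1 HH14 library left out. The count of lower genes was 4 at a pseudocount of 0.1, 3 after quantile normalization and from 1 to 7 with 1 HH14 library left out. Fewer genes pass the stricter filter by construction. The cause of the other changes was not tested. Except for limma, the share over all genes is not given for these settings, so nothing is read from these counts. Limma called 108 genes higher and 22 lower of 10771, and 772 at an unadjusted p below 0.05. It was run with 1 library at HH19, which is assumed to vary like the HH14 pair. The library values of PTN had weights of 78.4% to 97.6% over 4 sets of distributions and those of MDK 96.9% to 99.1%. Under the narrower ratio distributions PTN fell below the limit of 95%. The percent of genes below PTN was 95.5% at HH14 and 79.8% at HH19 over all genes, 94.7% and 76.7% over named genes, and 93.5% and 71.0% over genes with a mean of at least 1 TPM. No paired analysis was possible because HH19 has 1 library without a replicate number and the HH14 libraries share a column. ALK and FAM150B rest on under 100 reads per library, which limits them to large differences.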

Other observations

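The coding genes next to PTN and MDK in the RefSeq annotation of another build were looked up after the members' values had been seen, by order only. MTPN, near PTN, had 172 TPM in library A, 94.9 TPM in library B and 122 TPM at HH19, and CREB3L2 had 8.63, 4.44 and 6.45 TPM. Both were higher in library A than in library B, at under 2-fold, and neither was lower at HH19 than in library B. CHRM2 and DGKI, on either side of PTN, were below 8 TPM (7.52 and 0.684 TPM in library A). Near MDK, DGKZ had 4.93 TPM in library A, 9.07 TPM in library B and 12.0 TPM at HH19, the rising order of MDK, and AMBRA1 had 11.5, 15.2 and 18.1 TPM in the same order. The other two, CHRM4 with 2.88, 4.36 and 3.70 TPM and CREB3L1 with 2.54, 3.61 and 3.22 TPM, were lower at HH19 than in library B.

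Over all 3 libraries, the genes nearest to PTN were LIN28A, TJP1, DGCR8, MIS18A and the same gene with a clone name, with LIN28A at a distance of 1.11. This measure was added after the library values had been seen. None of these genes reached the 325 TPM of PTN in library A.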
